A study of Mus musculus with 6 samples.

Results

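The endoderm genes described here are 9 in number, and they were taken as every probe set that the platform annotation gives to Sox17, Foxa1, Foxa2, Gata4, Gata6, Sox7, Dab2, Cer1 or Cubn alone. They are 9 of the 18193 genes that the annotation names singly, and comprise 19 of the 45037 probe sets in the series. The study followed mouse embryonic stem cells over 2 days in N2B27, a medium without serum that turns such cells to neural fate. The cells derived from E14TG2a, a line of 129P2 background, and carried a doxycycline-inducible shRNAmir, a hairpin set in a microRNA, that targets Gmnn, the gene of the replication licensing inhibitor Geminin. GemKD cultures received 500 ng of doxycycline (Dox) as the labels give it, and uninduced cultures of the same lines received none. Each of 3 independent experiments gave 1 GemKD and 1 uninduced Affymetrix Mouse Genome 430 2.0 array, with shRNAmir 11 in experiments 1 and 3 and shRNAmir 9, in a separate line, in experiment 2. All groups thus carry a hairpin, and every GemKD culture also had Dox, so that Dox and knockdown cannot be told apart. No statement is made in the labels on how many clones stand behind each line.

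In the mouse blastocyst GATA6 marks the cells that become primitive endoderm, in which the transcription factors SOX17, GATA4 and SOX7 then come on and which gives rise to the visceral and parietal endoderm of the yolk sac. DAB2, an adaptor of clathrin-coated vesicles, and cubilin, the receptor encoded by Cubn, take up nutrients in visceral endoderm. CER1 is a secreted antagonist of Nodal, BMP and Wnt signals from the anterior visceral endoderm, while FOXA2 and its relative FOXA1 open chromatin in definitive endoderm and in the floor plate of the neural tube. Apart from the floor plate, which is itself neural, these lineages are alternatives to the neural fate that N2B27 favours.

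Dab2 has the probe set with the highest signal among the 19, and RefSeq holds a start site for it whose upstream bases contain a GATA word, the core recognised by GATA factors. Foxa1, the 1 member whose level was called different between experiments, has a forkhead word upstream of its own start. For each of these genes a start site with the word was taken, so the word's presence was fixed by that choice. Both stretches are shown because the likeness of the brightest Dab2 and Sox7 probe sets and the experiment difference of Foxa1 are the patterns described at length. They are the 250 bases before the RefSeq start site in GRCm38.p6, read 5′ to 3′ on the gene's strand, with the words in capitals.
Dab2, chr15:6299539-6299788, plus strand, GATA word in capitals: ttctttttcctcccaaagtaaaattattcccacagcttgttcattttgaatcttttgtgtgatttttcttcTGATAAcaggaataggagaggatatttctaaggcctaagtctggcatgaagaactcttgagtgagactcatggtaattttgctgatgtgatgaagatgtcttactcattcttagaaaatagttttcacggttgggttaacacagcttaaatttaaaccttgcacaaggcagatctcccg
Foxa1, chr12:57546112-57546361, minus strand, forkhead word in capitals: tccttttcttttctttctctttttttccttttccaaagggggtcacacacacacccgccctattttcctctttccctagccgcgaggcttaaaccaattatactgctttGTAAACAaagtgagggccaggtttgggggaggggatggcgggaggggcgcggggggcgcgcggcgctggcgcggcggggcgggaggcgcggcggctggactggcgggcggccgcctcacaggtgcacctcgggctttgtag
A RefSeq promoter window of 300 bases (250 before and 50 after the start) was held for 5 of the 9 members, in 8 windows. GATA words (AGATAA and likewise TGATAA, followed by AGATAG and likewise TGATAG, on either strand) lay in 2 of these 8 windows, one of Dab2 and one of Foxa2, and in 29.8% of all 32851 windows. The Dab2 window holds a GATA word at -179 and another, on the other strand, at 15 after the start. The forkhead word TGTTTAC lay in 1 of the 8 windows, that of Foxa1 at -141 on the opposite strand, and in 3.65% of all windows. The SOX word ACAAAG was searched too and lay in 2 of the 8 windows, of Foxa1 and Foxa2, and in 18.7% of all windows. A match in the Foxa1 window, at -137, overlaps the forkhead word. A word match describes the letters alone.

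The signal is a linear probe set intensity, and its median lay between 59.3 and 60.9 on the 6 arrays. A probe set is called near background here when its mean over the 6 arrays did not exceed 20.1, the 30th percentile over all probe sets, since no detection calls were used. By that limit 3 of the 19 endoderm probe sets lay near background, 8 lay between it and the 50th percentile, a signal of 60.1, and 8 lay above the 50th percentile. The 16 above the limit represented 8 of the 9 genes, all except Cer1. Gmnn, the target of the hairpins, had a signal of 983, 1669 and 1270 on the GemKD arrays of experiments 1, 2 and 3, against 3557, 3477 and 3463 on the uninduced arrays, so each array went the way of its label.

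Markers of other cell types were read from the same arrays. All 6 neural markers passed the limit, and Sox1, an early neural factor, had 2436, 2287 and 577 on the GemKD arrays of experiments 1, 2 and 3, against 2443, 2108 and 523 on the uninduced arrays. Hes5, a Notch target of neural progenitors, was dim, between 12.4 and 23.4 on GemKD arrays and between 14.9 and 34.3 on uninduced arrays. The pluripotency factor Pou5f1 stayed between 7338 and 7482 on GemKD arrays and between 7387 and 7711 on uninduced arrays, so the cultures labelled as neurectoderm still carried a bright pluripotency gene. The other 5 of the 6 pluripotency markers, Klf4, Zfp42, Nanog, Esrrb and Tbx3, were higher on the GemKD array in each of the 3 experiments, without overlap of the groups for Esrrb, and none was called with or without the block. Of all tested probe sets, 13.5% were higher in GemKD in all 3 experiments and 5.09% had groups without overlap. Nanog had log2 ratios of 0.50, 0.62 and 0.23 in experiments 1, 2 and 3. The summed signal of the 6 was 15429, 15825 and 10381 on the GemKD arrays, against 13850, 14366 and 10073 on the uninduced arrays, and its part in the endoderm values was not tested. Of 12 markers of extraembryonic endoderm 11 passed the limit, and their summed signal was between 2014 and 2082 on GemKD arrays and between 1760 and 2206 on uninduced arrays. Of that sum Lrp2, which neuroepithelium also expresses, made up 1054 to 1114 on GemKD arrays and 905 to 1095 on uninduced arrays, and the visceral endoderm marker Afp was near background. These are bulk cultures, in which fewer cells of a type and less RNA per cell cannot be told apart.

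**Figure D1:**
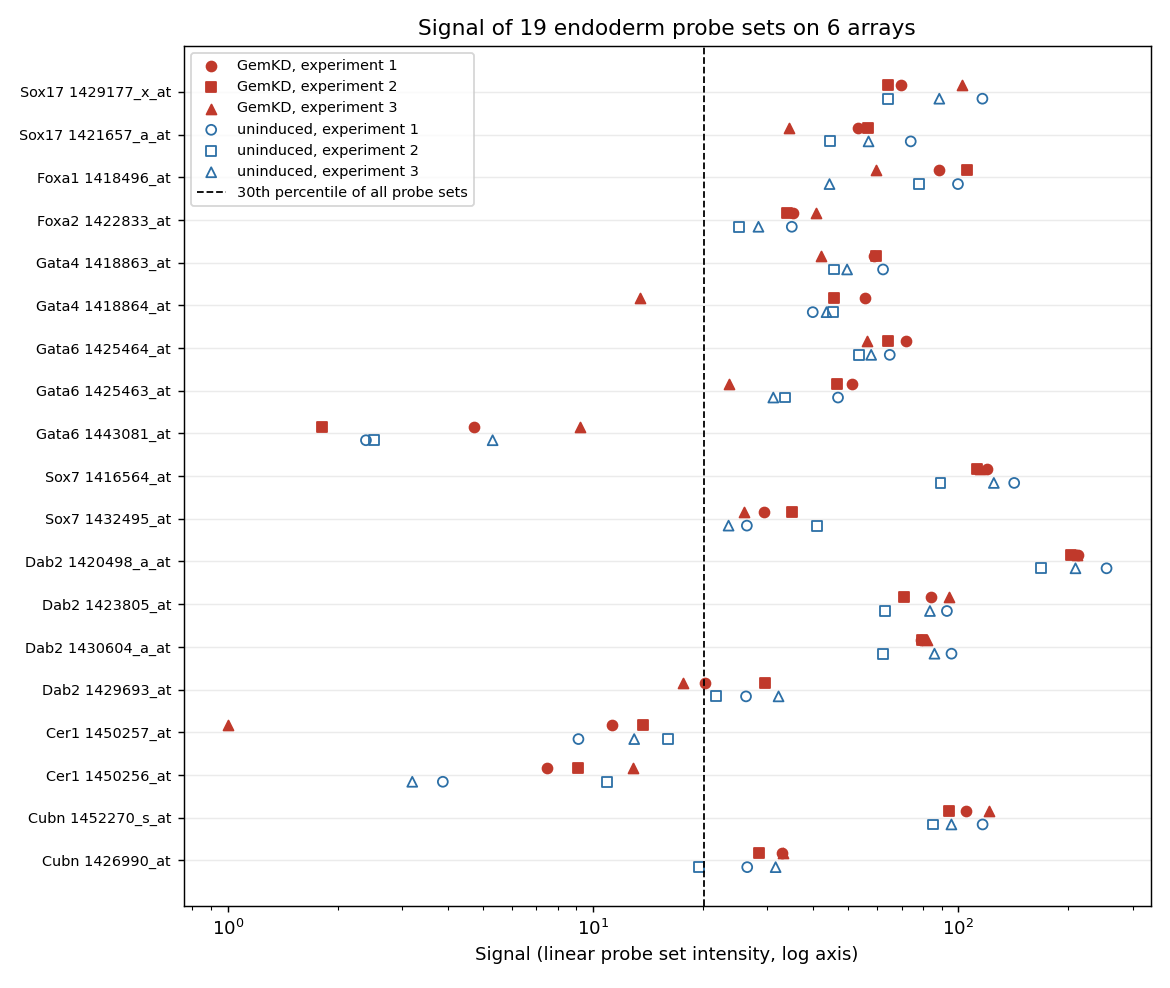
Signal of each of the 19 endoderm probe sets (log axis, linear intensity) on the GemKD arrays (filled red, upper row of each line) and uninduced arrays (open blue, lower row), with a symbol for each experiment and a dashed line at the 30th percentile of all probe sets, 20.1. Both Cer1 probe sets and Gata6 1443081_at lie left of the line on all 6 arrays, and in every line the GemKD and uninduced symbols overlap in range.

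Knockdown of Gmnn was compared with the uninduced state to ask whether endoderm genes moved with it. None of the 16 probe sets above the limit was called higher or lower in GemKD by limma at an adjusted p under 0.05, against 0.00317% of all 31526 tested probe sets, which is 1, Hprt. With the experiment as a block again none of the 16 was called, against 0.00952% of all, which is 3 probe sets. Gmnn, at a log2 fold change of -1.44, was 1 of these 3 (limma adjusted p = 0.000403). It was not called without the block (limma adjusted p = 0.296), so that fit missed even the target of the hairpins. At an unadjusted p under 0.05 there were 0 of the 16 in both fits. Of all 31526 tested probe sets there were 346 without and 1456 with the block. Both shares are so small that 0 of 16 says little about the endoderm probe sets. Of the 16, 11 had a positive and 5 a negative log2 fold change, and the median was 0.012, as it was over all tested probe sets (0.012). The median size of the change, whatever its sign, was 0.10 for the 16 and 0.07 for all tested. The 95% intervals of the 16 had a median half-width of 0.40 on the log2 scale without the block and 0.35 with it, before any adjustment for the number of probe sets tested. Log2 values are those of the signal plus 16, which understates changes of dim genes.

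The GemKD and uninduced ranges overlapped for all 16 probe sets, where 5.09% of all tested probe sets had ranges that did not overlap. Foxa2 and the dimmer Cubn probe set were the 2 of 16 that were higher in GemKD in each of the 3 experiments, against 13.5% of all tested probe sets, and none of the 16 was lower in all 3. A share of 2 in 16 is near that background. How many of all tested probe sets were lower in all 3 was not counted.

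**Figure D2:**
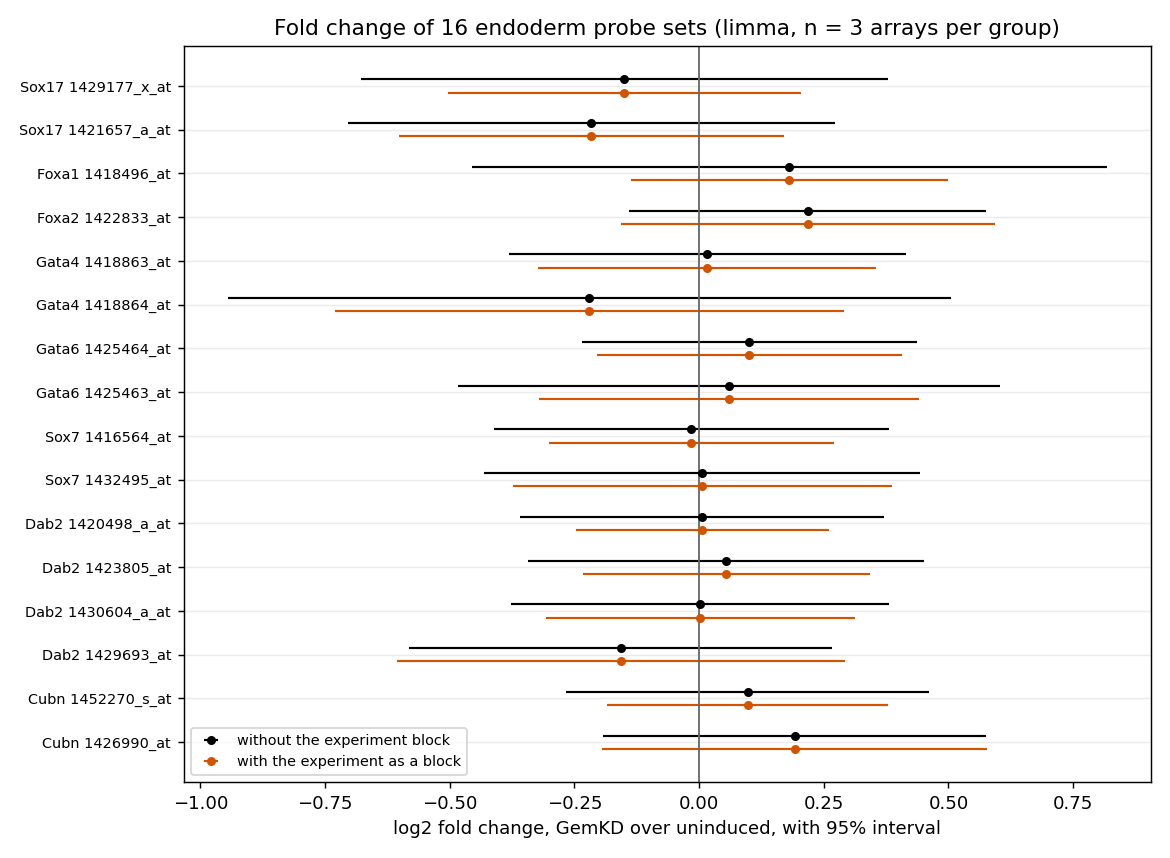
Log2 fold change of GemKD over uninduced, signal plus 16, for the 16 probe sets above the limit, as the limma estimate with its 95% interval from 3 arrays per group, without (black) and with (orange) the experiment as a block. Every interval crosses 0, and the estimates run from -0.22 to 0.22.

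Among the GATA factors, Gata6, the earliest known factor of primitive endoderm, is covered by 3 probe sets. Its brightest, 1425464_at, had a signal of 72.1, 64.2 and 56.3 on the GemKD arrays of experiments 1, 2 and 3, against 64.9, 53.5 and 57.7 on the uninduced arrays. The GemKD array was the higher of the pair in experiments 1 and 2, and the groups overlapped. This gave a log2 fold change of 0.10 (SE 0.14, 95% interval -0.23 to 0.44, limma adjusted p = 0.999993). The probe set 1425463_at of Gata6 had 51.1, 46.6 and 23.6 in GemKD, against 46.8, 33.5 and 31.1 in uninduced cultures. It was thus again higher in GemKD in experiments 1 and 2 and lower in experiment 3, with a log2 fold change of 0.060 (SE 0.23). The third Gata6 probe set, 1443081_at, was near background at 1.81 to 9.22 in GemKD and 2.39 to 5.31 in uninduced cultures.

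Gata4, a zinc finger factor that acts with Gata6 in extraembryonic endoderm and heart, had 2 probe sets that did not move together. With 1418863_at the signal was 58.9, 59.3 and 42.0 in GemKD, against 62.2, 45.6 and 49.6 in uninduced cultures, a log2 fold change of 0.017 (SE 0.17, 95% interval -0.38 to 0.41). With 1418864_at it was 55.4, 45.6 and 13.5 in GemKD, against 39.9, 45.5 and 43.6 in uninduced cultures. The GemKD array of experiment 3 stood well below the other 5 arrays there and under the limit of 20.1. Its within-experiment log2 ratio was -1.01 in experiment 3, against 0.35 and 0.0026 in experiments 1 and 2, while the Gata4 probe set 1418863_at had -0.18 in experiment 3. The log2 fold change of 1418864_at was -0.22 (SE 0.31, 95% interval -0.95 to 0.51). For both GATA factors the drop on the GemKD array of experiment 3 was thus seen in the dimmer of the 2 probe sets above the limit and was small or absent in the brighter.

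The SOXF factors Sox17 and Sox7 bind alongside GATA factors in primitive endoderm. Sox17, also a factor of definitive endoderm, had 69.8, 64.2 and 102 on the GemKD arrays of experiments 1, 2 and 3 with 1429177_x_at, against 116, 64.2 and 88.65 on the uninduced arrays. GemKD was lower in experiment 1, level in experiment 2 and higher in experiment 3, with a log2 fold change of -0.15 (SE 0.23, 95% interval -0.68 to 0.38). The suffix _x marks a probe set whose probes may bind other transcripts, by the naming of the array's maker. The Sox17 probe set 1421657_a_at gave 53.1, 56.6 and 34.3 in GemKD, against 74.0, 44.4 and 56.8 in uninduced cultures, with a log2 fold change of -0.22 (SE 0.21, 95% interval -0.70 to 0.27). The 2 probe sets went the same way in experiment 1, with log2 ratios of -0.62 and -0.38, and opposite ways in experiment 3, with 0.18 and -0.53. Without the uninduced array of experiment 1 the log2 fold change of 1429177_x_at was 0.027, so its sign rested on that array.

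Sox7 had 119.6, 112 and 115 on the GemKD arrays with 1416564_at, against 142, 89.3 and 125 on the uninduced arrays. The GemKD arrays lay close together inside the range of the uninduced arrays, of which experiment 1 was the highest and experiment 2 the lowest. This left a log2 fold change of -0.016 (SE 0.17, 95% interval -0.41 to 0.38). The dimmer Sox7 probe set, 1432495_at, had 25.8 to 35.1 in GemKD and 23.5 to 41.1 in uninduced cultures and a log2 fold change of 0.0066 (SE 0.19). Its order of arrays was not that of the brighter one, with its highest value on the uninduced array of experiment 2.

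Dab2 is covered by 4 probe sets. With 1420498_a_at the signal was 212, 204 and 210.6 on the GemKD arrays of experiments 1, 2 and 3, against 254, 168 and 209 on the uninduced arrays. As for Sox7, the 3 GemKD arrays were close together and the uninduced arrays of experiments 1 and 2 lay above and below them. Dab2 averaged 209 ± 4.37 in GemKD and 211 ± 43.1 in uninduced cultures (SD, n = 3 each), with a log2 fold change of 0.0064 (SE 0.16, 95% interval -0.36 to 0.37). The probe set 1430604_a_at had 79.2, 79.7 and 82.3 in GemKD, against 95.7, 62.2 and 86.0 in uninduced cultures. Here too the uninduced arrays of experiments 1 and 2 were the highest and the lowest of the 6, while the other 4 arrays stood in another order. With 1423805_at the Dab2 signal was 83.9, 71.0 and 94.3 in GemKD, against 93.0, 62.9 and 83.6 in uninduced cultures. All 3 of these probe sets were lower in GemKD in experiment 1 and higher in experiment 2. The fourth, 1429693_at, was dim, at 17.6 to 29.6 in GemKD and 21.8 to 32.2 in uninduced cultures, and had -0.16 (SE 0.18).

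Cubn had 105, 94.3 and 121 in GemKD with 1452270_s_at, against 116, 85.05 and 95.7 in uninduced cultures, a log2 fold change of 0.10 (SE 0.16, 95% interval -0.27 to 0.46). The experiment 1 pair was lower in GemKD and the other pairs were higher. The suffix _s marks probes shared by several transcripts, by the same naming. The Cubn probe set 1426990_at had 32.8, 28.5 and 33.1 in GemKD, against 26.4, 19.5 and 31.6 in uninduced cultures, where the groups overlapped through experiment 3. Its log2 fold change was 0.19 (SE 0.17, 95% interval -0.19 to 0.58), with ratios of 0.20, 0.33 and 0.05 in experiments 1, 2 and 3.

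Foxa2 had 35.4, 34.0 and 40.8 in GemKD, against 35.0, 25.0 and 28.4 in uninduced cultures. It was higher in GemKD in each experiment, though by a log2 ratio of only 0.010 in experiment 1, where the uninduced array reached the level of the GemKD arrays. The ratios were 0.29 and 0.36 in experiments 2 and 3, which made for a log2 fold change of 0.22 (SE 0.15, 95% interval -0.14 to 0.58, limma adjusted p = 0.999993). Foxa1 had 88.5, 106 and 59.3 in GemKD, against 99.7, 78.1 and 44.4 in uninduced cultures. It was lower in GemKD in experiment 1 and higher in the others, with a log2 fold change of 0.18 (SE 0.27, 95% interval -0.46 to 0.82). Without the uninduced array of experiment 3 it was -0.082.

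Cer1 was near background with both of its probe sets on all 6 arrays. With 1450257_at it had 11.3, 13.7 and 1 in GemKD, against 9.12, 16.1 and 13.0 in uninduced cultures. With 1450256_at it had 7.48, 9.08 and 12.9 in GemKD, against 3.88, 10.9 and 3.2 in uninduced cultures. The 2 probe sets put the GemKD array of experiment 3 at opposite ends, lowest with the one and highest with the other. No fold is given for Cer1, since both groups lie below the limit.

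The ratios within each experiment were then compared, because experiment 2 used another hairpin and line. In experiment 2, 14 of the 16 probe sets were higher in GemKD, 1 was lower and 1 was level, against 48.3% of all tested probe sets higher. In experiment 1, 6 were higher and 10 lower, against 48.8% higher, and in experiment 3, 8 were higher and 8 lower, against 57.7% higher. The median log2 ratio of the 16 was -0.13, 0.27 and -0.0093 in experiments 1, 2 and 3, and over all tested probe sets it was -0.0040, -0.0066 and 0.034. Several of the 16 belong to the same gene and each experiment is a single pair of arrays, so the experiment 2 count has no replicate check. None of the 16 was called in a limma test of the hairpin interaction, the shRNAmir 9 change minus the shRNAmir 11 change, against 0.336% of all tested probe sets. An unadjusted p under 0.05 was found for 0 of the 16, against 1362 of all 31526 tested, a share at which 0 of 16 says little. The Sox17 probe set 1421657_a_at came nearest, at 0.72 (SE 0.36, limma adjusted p = 0.99986). A single experiment stands for shRNAmir 9.

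**Figure D3:**
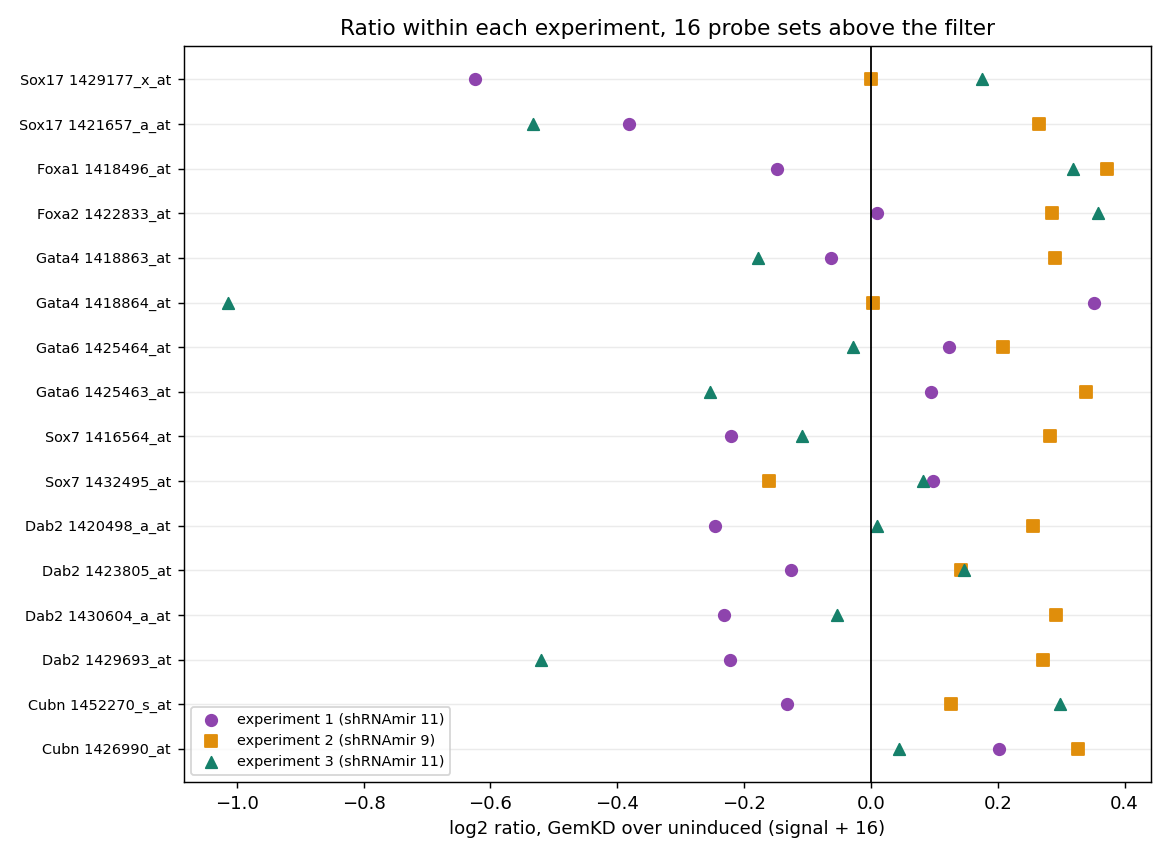
Log2 ratio of GemKD over uninduced, signal plus 16, within experiments 1 (purple circles), 2 (orange squares) and 3 (green triangles) for the 16 probe sets above the limit. Of the squares 14 lie right of 0, while the circles and triangles lie on both sides, from -1.01 to 0.36.

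The uninduced array of experiment 2 had the lowest signal of the 6 for the brightest probe sets of Dab2, Sox7, Cubn, Foxa2 and Gata6, and the uninduced array of experiment 1 had the highest for Dab2, Sox7, Sox17 and Gata4. The SD of log2 values was 0.028 among GemKD and 0.28 among uninduced arrays for Dab2 1420498_a_at, and 0.042 among GemKD and 0.30 among uninduced arrays for Sox7 1416564_at. It was larger among GemKD arrays for Gata4 1418864_at, at 0.68 against 0.070, and for the dim Dab2 1429693_at, at 0.23 against 0.18. Over the 16 probe sets the SD was larger among the uninduced arrays for 11, which is 68.75%, against 52.9% of all tested probe sets. Only 3 arrays stand behind each SD, and the difference in spread was not tested.

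The brightest probe sets of Dab2 and Sox7 followed a like course over the 6 arrays, with a Pearson r of 0.97 (Spearman's rho 0.83). Their dimmest probe sets did not share it, as Sox7 1432495_at had an r of -0.73 with Dab2 1420498_a_at and Dab2 1429693_at had 0.19. The arrays are pairs from 3 experiments, so the value is a description. Of 14184 other genes, 4 had an r with Dab2 at or above that of Sox7, Sox7 itself among them. Without the uninduced arrays of experiments 1 and 2, the 2 farthest from the Dab2 median, r was 0.52 over 4 arrays, so the likeness rested largely on those arrays. Amn encodes amnionless, which carries cubilin to the cell surface and was picked from the partner list after its values were seen. It had 120.2, 97.4 and 123 in GemKD, against 144, 76.1 and 127 in uninduced cultures. Its r with Dab2 was 0.92, and 0.87 without those 2 arrays. Of the 14184 genes, 37 had an r at or above that of Amn, Amn itself among them. The other members ranged below Amn with their brightest probe sets. Their r was 0.77 for Cubn, 0.76 for Sox17, 0.62 for Foxa2, 0.58 for Gata4, 0.56 for Gata6 and 0.19 for Foxa1. Without those 2 arrays it was 0.61, 0.49, 0.24, -0.37, 0.097 and -0.43 in the same order. The r of Dab2 1430604_a_at with the brightest Dab2 probe set likewise went from 0.96 to 0.13. Over all 6 arrays Hnf4a, a nuclear receptor of visceral endoderm, ran the other way at -0.78. Lrp2, the co-receptor of cubilin, had 0.36 over all 6.

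**Figure D4:**
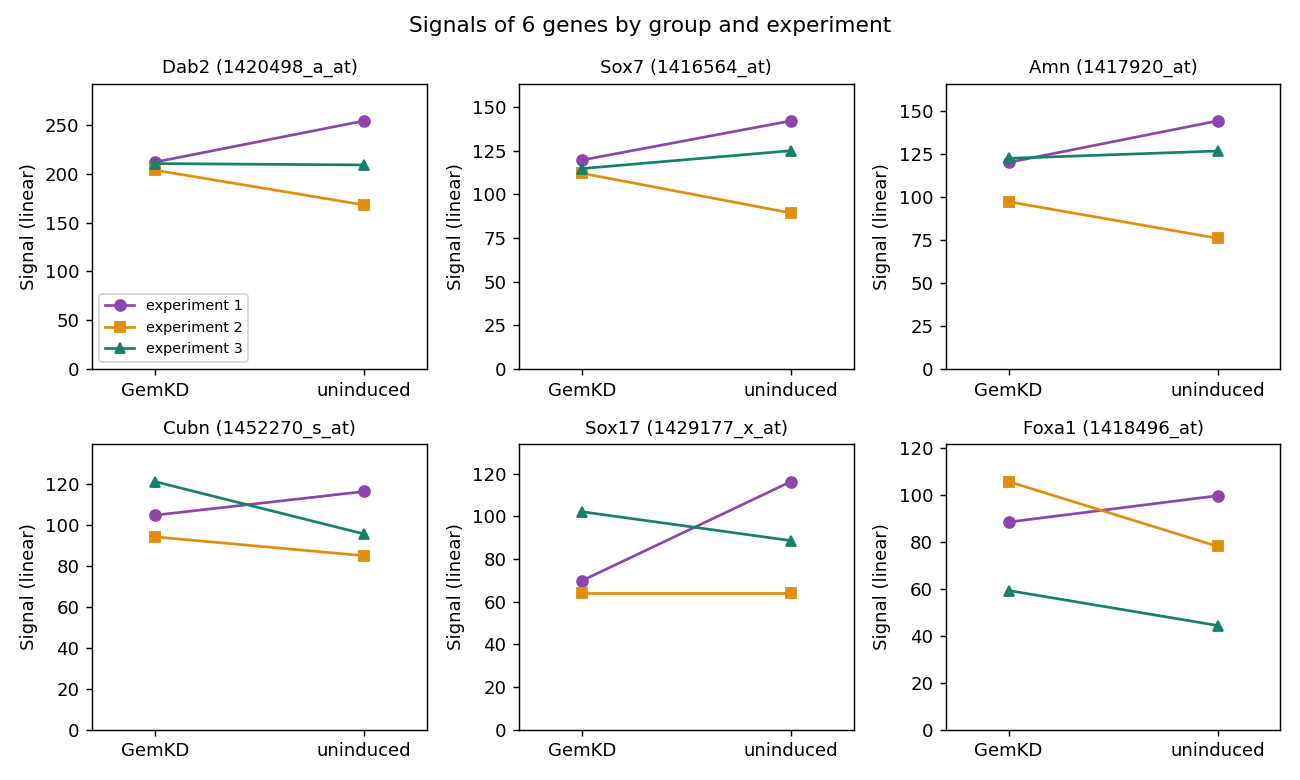
Signal (linear, axes from 0) of the brightest probe sets of Dab2, Sox7, Amn, Cubn, Sox17 and Foxa1 in GemKD (left) and uninduced (right) cultures, with a line joining the 2 arrays of each experiment. Dab2 and Sox7 have nearly equal GemKD values and uninduced values spread above and below them, while Foxa1 is lowest in experiment 3 on both sides.

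Levels were compared between the 3 experiments with an F test in limma that keeps the group as a term. Foxa1 was the 1 of the 16 probe sets called (adjusted p = 0.0233), against 18.7% of all tested probe sets, so the endoderm probe sets were not called more often than the rest. Foxa1 averaged 94.1 in experiment 1 and 91.9 in experiment 2, over both arms, and 51.8 in experiment 3. On the log2 scale experiment 3 lay 0.69 below the mean of the other 2, and both of its arrays were below the 4 others. The call was lost without a filter (adjusted p = 0.0893), without the intensity trend (0.103) and without experiment 3 (0.982). It held in the other alternatives, so that the adjusted p ran from 0.00696 to 0.982 over all of them. Sox1, at 577 and 523 on the GemKD and uninduced arrays of experiment 3, was lowest in the same experiment. So were the neural markers Pax6, Zic1, Sox2 and Hes5. Averages over both arms in experiments 1, 2 and 3 were 822, 691 and 146 for Pax6 and 327, 307 and 169 for Zic1. They were 5783, 5942 and 5183 for Sox2 and 28.9, 17.2 and 16.4 for the dim Hes5. Of the 6 neural markers only Nes was not lowest there, with averages over both arms of 258, 252 and 274 in experiments 1, 2 and 3. Markers of other kinds differed too, with averages of 2073, 1991 and 315 for Nanog and 107, 146 and 621 for the epiblast marker Fgf5. The part of these differences in the Foxa1 result was not tested. Gata6 1425463_at (adjusted p = 0.161) and Sox17 1429177_x_at (0.197) followed without passing. The 3 genes with a course over the 6 arrays most like that of Foxa1 were Unc93b1, a chaperone of Toll-like receptors, Ccdc51, and Hmgn5, a nucleosome-binding protein, each with a Pearson r of 0.996 or 0.997 over 6 arrays of which 2 are of experiment 3.

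Other genes of the same lineages, in lists chosen with earlier results of these data known, were set beside the members through the brightest probe set of each gene. Of 22 genes of primitive and visceral endoderm 19 had a probe set and 14 were above the limit, and none was called with or without the block. Their median log2 fold change was 0.06, with 10 of 14 positive, where 55.0% of all tested probe sets were positive. The largest were Vil1, the microvillus protein villin, at 0.27 (SE 0.30), Fgfr4 at 0.18 (SE 0.18), Bmp2 at 0.15 (SE 0.22) and the apolipoprotein gene Apob at -0.14 (SE 0.15). Vil1 had a signal of 37.8, 49.4 and 66.5 in GemKD, against 59.7, 45.9 and 19.2 in uninduced cultures, so its sign turned between experiments 1 and 3.

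The 14 genes of parietal endoderm and basement membrane were all above the limit. None was called in GemKD against uninduced, and 8 of the 14 were called between experiments, where 18.7% of all tested probe sets were. By the same test 4 of 14 genes of primitive and visceral endoderm were called, 1 of 4 of anterior visceral endoderm, 2 of 8 of definitive endoderm and mesendoderm, 8 of 19 of the FGF and Nodal inputs and 2 of 5 of the floor plate. These lists hold only the brightest probe set of each gene, unlike the 18.7%, which is over all tested probe sets. When the test between experiments was run on 1 probe set per gene, 3867 of 14185 genes were called. The median log2 fold change of GemKD over uninduced was 0.02 for the 14 parietal endoderm genes. Serpinh1, a collagen chaperone, had 0.28 (SE 0.48), and the laminin chain gene Lamc1 0.18 (SE 0.20). Thrombomodulin, encoded by Thbd, had -0.19 (SE 0.20), and the perlecan gene Hspg2 -0.15 (SE 0.18).

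Of 7 genes of anterior visceral endoderm 4 were above the limit, and none was called. Lefty1, a Nodal antagonist made there and also in pluripotent cells, had 949.8, 792 and 734 in GemKD, against 426, 425 and 565 in uninduced cultures, with groups that did not overlap. Its log2 fold change was 0.79 (SE 0.15), and its limma adjusted p was 0.999993 without the block and 0.180 with it. Groups did not overlap for 5.09% of all tested probe sets. The other 3 stayed near 0, with -0.07 for the Wnt antagonist gene Dkk1, 0.04 for Hhex and 0.003 for Otx2, while Gsc, Hesx1 and Lhx1 were near background.

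Of 13 genes of definitive endoderm and mesendoderm 12 had a probe set, 8 were above the limit and none was called, with a median of -0.05. Trh, which encodes thyrotropin-releasing hormone, had 0.28 (SE 0.27), Nepn -0.25 (SE 0.26), the mesoderm factor Mesp1 0.21 (SE 0.17) and Cdx2 -0.12 (SE 0.20). The chemokine receptor gene Cxcr4, a marker of definitive endoderm, was near background at 12.3 to 28.7 in GemKD and 17.6 to 20.6 in uninduced cultures.

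Signals that feed endoderm specification were read next. All 19 genes of the FGF and Nodal inputs were above the limit, none was called, and their median was 0.02. Fgf4, the ligand that drives primitive endoderm formation, had 1128, 1278 and 1594 in GemKD, against 1309, 1881 and 1745 in uninduced cultures. It was lower in GemKD in each experiment, by a log2 fold change of -0.30 (SE 0.17, limma adjusted p with the block 0.992). The share of all tested probe sets that were lower in each experiment was not counted. The convertases that process Nodal, Furin and Pcsk6, had 0.20 (SE 0.14) and 0.18 (SE 0.13), and the receptor gene Fgfr1 had 0.13 (SE 0.24).

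Since Foxa1 and Foxa2 also mark the floor plate, 5 of 6 listed floor plate genes with a probe set were read, all above the limit and none called. Shh, the ligand made there, had 131, 114 and 161 in GemKD, against 111, 117 and 126 in uninduced cultures (log2 fold change 0.17, SE 0.15). Nkx2-2 had 0.22 (SE 0.20), Foxj1 0.36 (SE 0.15) and Spon1 -0.41 (SE 0.78). Foxj1, a factor of motile cilia, was higher in GemKD in each experiment without overlap, at 53.3, 70.7 and 54.5 in GemKD, against 45.1, 44.98 and 37.3 in uninduced cultures. Such lack of overlap was seen for 5.09% of all tested probe sets. Spon1 was several times brighter in experiment 3 than in the others in both groups.

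Relatives and partners of the members were not called either. Of the GATA family and its cofactors, Gata1 had a log2 fold change of 0.23 (SE 0.18), Gata2 0.05 (SE 0.15), the FOG cofactor genes Zfpm2 0.07 (SE 0.15) and Zfpm1 -0.01 (SE 0.18), while Gata3 and Gata5 were near background. Foxa3 had -0.08 (SE 0.18). The third SOXF gene, Sox18, had -0.35 (SE 0.16), with 41.3, 32.8 and 29.1 in GemKD, against 43.8, 46.0 and 53.8 in uninduced cultures. Its groups did not overlap, as for 5.09% of all tested probe sets, and the difference did not pass (limma adjusted p with the block 0.992). Among the DAN family antagonists related to Cer1, Dand5 had -0.19 (SE 0.21) and Grem1 -0.13 (SE 0.16), while Nbl1 and Sostdc1 were near background. Dand5 and Grem1 were lower in GemKD in each experiment, a trait whose share among all tested probe sets was not counted.

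All 8 partners of Dab2 and cubilin with a probe set were above the limit. Myo6, the motor that binds DAB2 on endocytic vesicles, had 168, 194 and 148 in GemKD, against 215, 208 and 195 in uninduced cultures. The groups did not overlap, as for 5.09% of all tested probe sets. Its log2 fold change was -0.26 (SE 0.13), with a limma adjusted p of 0.992 with the block. Ap2a1, of the clathrin adaptor AP2, had 0.20 (SE 0.14), Lrp2 0.13 (SE 0.09) and its chaperone gene Lrpap1 0.08 (SE 0.13). Gipc1 had 0.06 (SE 0.15), the clathrin heavy chain gene Cltc 0.02 (SE 0.05), Amn 0.01 (SE 0.22) and the neuronal adaptor gene Dab1 -0.06 (SE 0.13).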

How the data were processed

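Biotin-labelled total RNA of 6 cultures was read on 6 arrays (Affymetrix Mouse Genome 430 2.0), per the labels. The authors deposited 1 linear intensity per probe set and array. How background and normalization were handled is not given in the sources used here. Between 1.58% and 1.69% of values of an array were exactly 1 and were kept.

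The platform annotation gave exactly 1 symbol for 34945 probe sets, several for 932 and none for 9160. Probe sets with a mean signal above the 30th percentile (20.1) were tested, 31526 in all. The log2 scale is that of the deposited signal with 16 added. GemKD was set against uninduced by limma 3.58.1 (R 4.3.3; lmFit, eBayes with trend, two-sided; adjusted over all tested probe sets after Benjamini-Hochberg, threshold 0.05), without a block and, as the alternative, with the experiment as a block. Both arrays of an experiment number come from the same line and experiment, per the labels, so the number pairs them, and deviations from the group means correlated at 0.431, 0.380 and 0.656 in experiments 1, 2 and 3. An SE or interval printed beside a log2 fold change of GemKD over uninduced is that of the fit without the block. Experiments were compared by an F test with the group as a term, and hairpins by an interaction term with 1 residual degree of freedom. The labels do not say that arrays of a group came from separate clones, so p-values without the block measure the spread between experiments. Those with the block and of the F test are set against how the GemKD over uninduced ratio varied among experiments. The interaction has only the ratios of experiments 1 and 3 for this. The number of arrays limits the precision. The tests were tried on simulated data.

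The members and lists were chosen with earlier results of these data known. All members and all relatives and partners are named, with up to 4 genes of each other list, taken by how far they moved on the log2 scale, and the 3 genes most like a member that spans over 1 log2 unit. Lefty1, Foxj1, Sox18 and Myo6 were described further, and Amn, Hnf4a, Hes5, Cxcr4 and Afp named, after their values were seen. Tried besides were the block, a hairpin term, quantile normalization, no filter, a filter at the 50th percentile, only the brightest probe set per gene, pseudocounts 1 and 64, eBayes without trend, and omission of each array or experiment. RefSeq promoter windows of GRCm38.p6 were searched for short words on both strands.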

Additional observations from a re-analysis of the deposited data

Results flagged for a closer look

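The change in Gmnn, which checks the labels, was called in the hairpin interaction test. Its log2 ratio was -1.05 with shRNAmir 9 (experiment 2), against -1.84 and -1.44 with shRNAmir 11 (experiments 1 and 3), a difference of 0.59 (SE 0.14, limma interaction adjusted p = 0.0415, higher with shRNAmir 9 in 1 of 1 experiment). The adjusted p ran from 0.00226 to nearly 1 over the alternatives, and the call was lost under quantile normalization (0.143), without a filter (above 0.99) and without the intensity trend (0.99992). No endoderm probe set passed this test. Only experiment 2 used shRNAmir 9, so hairpin, line and experiment cannot be told apart. The Gmnn ratios of experiments 1 and 3, which share shRNAmir 11, also lay apart, at -1.84 and -1.44.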

How the results depend on the processing

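No endoderm gene was called under any of the alternatives run on its brightest probe set. Of 112 such recomputed log2 fold changes 94 kept their sign and 18 turned, and the lowest adjusted p among the 112 was 0.657. Under quantile normalization Dab2 had -0.023. Leaving out an array or an experiment gave -0.13 to 0.14 for Dab2, -0.18 to 0.11 for Sox7, -0.33 to 0.088 for Sox17, -0.12 to 0.14 for Gata4, -0.082 to 0.39 for Foxa1 and -0.0029 to 0.21 for Cubn. Foxa2 and Gata6 stayed positive in all alternatives run. Over all probe sets, the 1 called for GemKD against uninduced became 3 with the experiment as a block (replicate block) and 0 without the intensity trend, and leaving out an array or, with the block, an experiment gave 0 to 17. The block changed no call of an endoderm gene. The 5911 called between experiments became 3787 without a filter, 3867 with 1 probe set per gene and 1252 without the intensity trend, and leaving out an experiment gave 23 to 7095, the lowest without experiment 3. The 106 of the hairpin interaction became 0 without a filter, 161 with a filter at the 50th percentile, 46 with 1 probe set per gene and 0 without the intensity trend. The cause of these shifts was not tested, beyond the smaller number of features with 1 probe set per gene. Signals near the limit restrict what Foxa2, Gata4, Gata6 and the dimmer probe sets can show.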
